A study of Mus musculus with 6 samples.

Results

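Glycolysis and the response to low oxygen were followed through 37 mouse genes, chosen by symbol, of 41214 genes counted in each of 6 libraries. The list holds a glucose transporter, 15 glycolytic enzymes, 2 lactate dehydrogenases, 2 pyruvate dehydrogenase kinases, 3 enzymes that set the level of the main activator of phosphofructokinase, 5 genes of hypoxia-inducible factor (HIF) and its oxygen sensors, and 9 HIF targets. All 37 symbols matched a single gene, and 33 passed the filter on low counts. The cells were grown from mammary tumours that arose from NMuMG, a mouse mammary epithelial line, and they express the receptor tyrosine kinase ErbB2. In 3 libraries the cells carried a control hairpin (shCTL, genotype given as WT) and in 3 a hairpin that lowers CdGAP (shCdGAP, genotype given as CdGAP KD). CdGAP, the product of Arhgap31, inactivates Cdc42 and Rac1. The labels give neither the number of hairpins nor whether the cells were a clone or a pool. Nor do they say if each replicate was its own culture, and the p-values rest on variation between libraries that could be technical.

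Library totals ran from 19176540 to 26824249 counts. Arhgap31 was at 13.2, 14.4 and 15.1 counts per 1000000 (CPM) in shCTL and at 1.70, 9.16 and 8.21 CPM in shCdGAP (edgeR adjusted p = 0.19), so shCdGAP replicate 1 had the lowest level of the targeted gene. That library also stood apart from the other shCdGAP libraries on the second principal component of all tested genes (21.7% of the variance), and in both groups replicate 1 lay on the same side of its replicates. Where leaving out these libraries changed the call or the direction of a member, the member is named. Changes in size alone are given for some members only. Of 8 epithelial markers Krt8 and Krt18 were the most abundant, and the summed level of the 8 was 5905 to 10980 CPM, with Cldn7 at 0 counts in all libraries. Of 6 tested epithelial markers, 2 rose and 1 fell, and 5 had log2 fold changes above 0. The marker that fell, Epcam, was scarce and was chosen for mention after its values were seen. It had 29 to 32 counts (1.06 to 1.65 CPM) in shCTL and 0 in shCdGAP. Sums for 7 fibroblast markers were 3.41 to 7.06 CPM, with Lum at 0 throughout, and sums for 5 red cell markers were at most 0.146 CPM. Sums were lower in every shCdGAP library than in any shCTL library for 6 endothelial markers (0.136 to 0.760 against 2.17 to 2.33 CPM, Emcn at 0), 7 immune markers (5.51 to 17.1 against 18.8 to 23.7 CPM, Adgre1 at 0) and 4 adipocyte markers (0.680 to 1.51 against 4.33 to 4.85 CPM, Plin1 at 0). Of the 2 tested markers of each of these 3 types, 1 endothelial, 0 immune and 2 adipocyte markers fell by edgeR, and 2, 1 and 2 by DESeq2 and at an unadjusted p under 0.05. Of all 13483 tested genes, 1534 fell by edgeR, 1949 by DESeq2 and 2332 at an unadjusted p under 0.05. Most of the immune sum was Cd68, at 15.4 to 21.7 CPM in shCTL and 2.93 to 10.9 CPM in shCdGAP. Csf1r, the other tested immune marker, had a higher mean in shCdGAP (1.87 ± 0.738 against 3.86 ± 1.98 CPM), and its groups overlapped. The lower immune sum is thus that of Cd68. Mitochondrial genes took 1.58 to 1.69% of counts in shCTL and 2.32 to 3.24% in shCdGAP. The part of these differences in the results was not tested, and in bulk RNA fewer cells of a type cannot be told apart from less RNA per cell.

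As background, glycolysis turns glucose into pyruvate, which lactate dehydrogenase reduces to lactate or mitochondria oxidise, and tumour cells commonly run it at a high rate even with oxygen present. When oxygen falls, prolyl hydroxylases of the Egln family stop marking HIF alpha subunits for the Vhl ubiquitin ligase, and the stabilised factor binds a short core motif, often ACGTG, near genes of glucose uptake, glycolysis, pH control, mitophagy and vessel growth. Because HIF is controlled mainly through protein stability, the messenger level of its subunits is not a measure of its activity.

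The start regions of 3 members are shown because Slc2a1 fell in the comparison, while Bnip3 and Ankrd37 were high in replicate 1 of both groups. Each runs 5′ to 3′ along the transcribed strand, from 250 bases before to 50 bases after the RefSeq start (build GRCm38.p6), with capitals marking ACGTG on either strand. They lie at chr4:119108495-119108794 (plus strand), chr7:138909457-138909756 (minus strand) and chr8:45999801-46000100 (minus strand). In Bnip3 the 2 matches overlap in a palindrome.
Slc2a1: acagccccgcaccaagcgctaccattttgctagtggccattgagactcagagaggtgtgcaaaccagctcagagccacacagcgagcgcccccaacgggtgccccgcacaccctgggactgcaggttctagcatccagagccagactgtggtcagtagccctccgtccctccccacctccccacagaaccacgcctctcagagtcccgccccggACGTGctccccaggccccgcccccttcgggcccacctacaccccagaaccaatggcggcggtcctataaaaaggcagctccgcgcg
Bnip3: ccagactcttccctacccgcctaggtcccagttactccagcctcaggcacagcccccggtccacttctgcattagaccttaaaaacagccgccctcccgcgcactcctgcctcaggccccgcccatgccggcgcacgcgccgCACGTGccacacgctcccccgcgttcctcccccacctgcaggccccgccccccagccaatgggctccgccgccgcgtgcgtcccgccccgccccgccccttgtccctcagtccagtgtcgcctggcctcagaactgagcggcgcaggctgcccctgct
Ankrd37: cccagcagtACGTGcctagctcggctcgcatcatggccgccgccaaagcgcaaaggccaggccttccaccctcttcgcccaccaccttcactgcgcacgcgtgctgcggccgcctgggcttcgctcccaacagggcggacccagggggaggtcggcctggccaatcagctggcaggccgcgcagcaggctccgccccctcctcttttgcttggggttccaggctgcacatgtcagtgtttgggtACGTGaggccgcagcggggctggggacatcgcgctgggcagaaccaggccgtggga
Windows of this kind were matched for 34 members, some with more than 1 start, and ACGTG stood in 27 of their 50 windows (54%). Over all genes it stood in 6447 of 32851 windows (19.6%). Members without a matched window were Epas1, Ndrg1 and Bnip3l. Pfkp, which also fell and was highest in replicate 1 of both groups, is not shown, and its 1 window held 0 matches to ACGTG. A match describes the letters only and is no measure of binding.

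In the comparison of shCdGAP with shCTL, 4 members fell and 1 rose. Slc2a1 (the glucose transporter of the plasma membrane), Hk1 (the housekeeping hexokinase), Pfkp (the platelet-type phosphofructokinase) and Pdk3 (a kinase that inhibits pyruvate dehydrogenase) were lower, by 1.53-fold to 3.77-fold. Pfkfb3, which makes the activator of phosphofructokinase, was 1.79-fold higher. The abundant enzymes Gpi1, Aldoa, Tpi1, Gapdh, Pgk1, Pgam1, Eno1, Pkm and Ldha did not pass the test. The 5 called members were 15.2% of the 33 tested, against 21.7% of all 13483 tested genes (10.4% called higher, 11.4% lower). That difference was not tested, and its order turned with the replicate number as a block (21.2% against 20.4%). The groups did not overlap for 13 of the 33 members, against 44.1% of all genes. The median log2 fold change was −0.12 over the members and 0.01 over all tested genes, with 21 members below 0 and 12 above. With 1 library left out the members' median ran from −0.26 (without shCdGAP replicate 1) to −0.051 (without shCdGAP replicate 3).

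**Figure D1:**
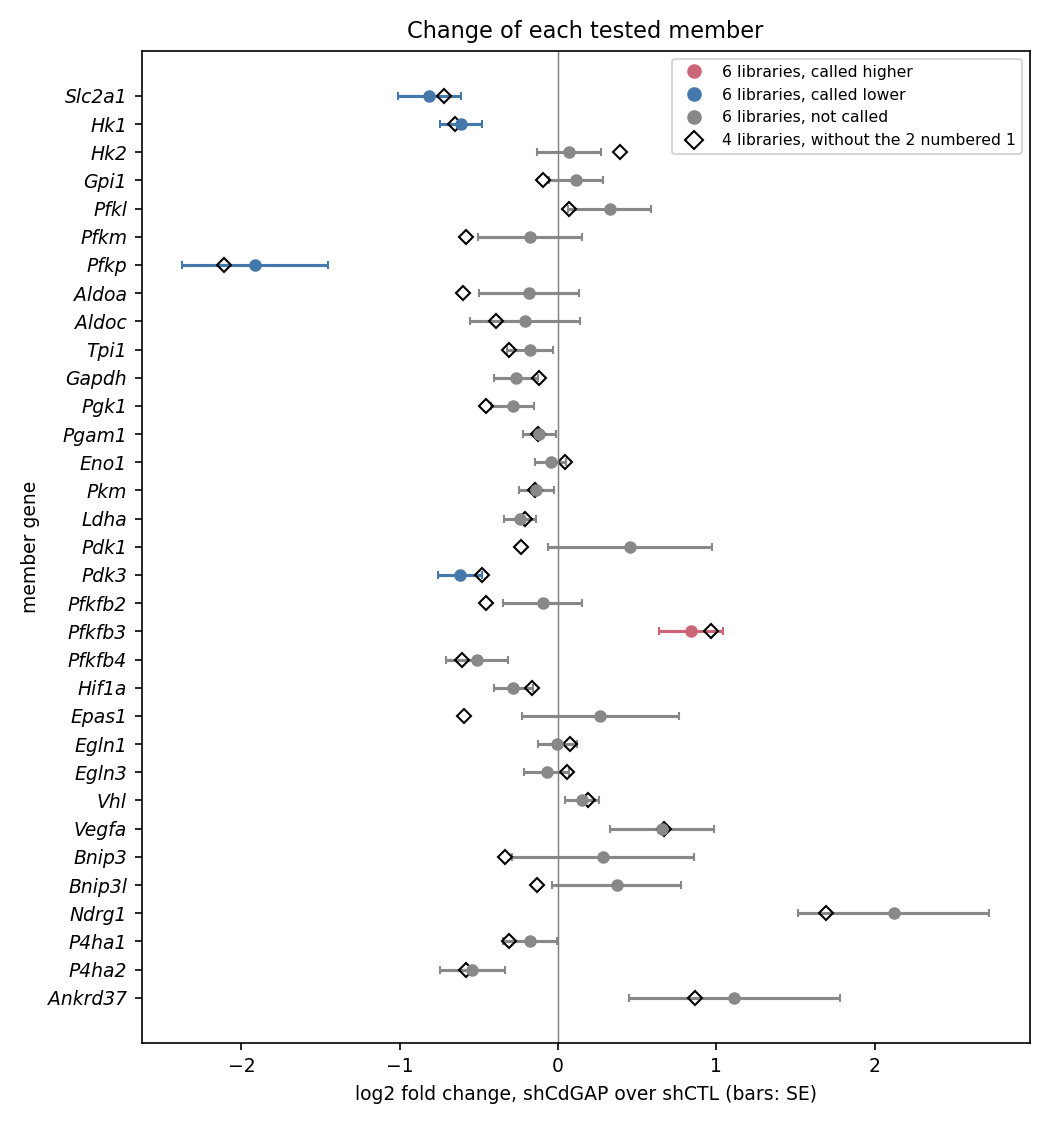
Log2 fold change of the 33 tested members, shCdGAP over shCTL; filled points are the fit on 6 libraries with its SE, and open diamonds the fit without the 2 libraries numbered 1. The 4 members called lower and the 1 called higher keep their side of 0 in both fits, while Pdk1, Epas1, Bnip3 and Bnip3l lie above 0 with 6 libraries and below 0 with 4.

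Slc2a1 was at 175, 129 and 116 CPM in shCTL replicates 1 to 3 and at 91.4, 82.0 and 65.7 CPM in shCdGAP replicates 1 to 3. Every shCdGAP library lay below every shCTL library. The log2 fold change was −0.81 ± 0.20 (SE, adjusted p = 0.0305). Slc2a1 (ENSMUSG00000028645) is on GRCm38 chromosome 4 from 119108711 to 119137330, and the counts cover its exons.

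Hexokinase, which traps glucose in the cell as a phosphate, has 2 members that differed in their values. Hk1 was at 355, 309 and 311 CPM in shCTL and fell to 246, 200.1 and 192 CPM in shCdGAP (log2 fold change −0.61 ± 0.13, adjusted p = 0.0202). Hk2, the inducible form and a known HIF target, was at 136, 88.9 and 83.6 CPM in shCTL and at 98.4, 111 and 114 CPM in shCdGAP. The Hk2 groups overlapped and the gene did not pass (log2 fold change 0.07 ± 0.20, adjusted p = 0.857). Without the 2 libraries numbered 1, Hk2 was higher (log2 fold change 0.39, adjusted p = 0.000695). Per length, Hk2 made up 35.4, 29.1 and 27.7% of hexokinase signal in shCTL and 36.4, 44.2 and 45.9% in shCdGAP, groups that did not overlap. Hk1 (ENSMUSG00000037012) lies on chromosome 10 from 62268855 to 62379908, minus strand.

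Phosphofructokinase commits sugar to glycolysis and has liver (Pfkl), muscle (Pfkm) and platelet (Pfkp) subunits. Pfkp was at 51.6, 27.3 and 27.3 CPM in shCTL and fell to 15.7, 6.08 and 6.42 CPM in shCdGAP. In each group replicate 1 was the highest, and the groups did not overlap (log2 fold change −1.91 ± 0.46, adjusted p = 0.0300). Pfkp is on chromosome 13 from 6579768 to 6648777 (ENSMUSG00000021196). Pfkl was at 208, 183 and 167 CPM in shCTL and at 334, 191 and 174 CPM in shCdGAP (adjusted p = 0.43). Pfkm was at 189, 164 and 158 CPM in shCTL and at 238, 111 and 102 CPM in shCdGAP (adjusted p = 0.754). For both, shCdGAP replicate 1 lay above all shCTL libraries, while Pfkm in the other shCdGAP libraries lay below them. Without shCdGAP replicate 1 the Pfkm log2 fold change was −0.66 and passed (adjusted p = 0.00153). Per length, Pfkp was the smallest part of the family. The Pfkl share was 40.8 ± 0.698% in shCTL and 51.4 ± 2.93% in shCdGAP (SD, n = 3), and that of Pfkp was 3.57 ± 0.999% and 0.920 ± 0.132%.

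The 3 Pfkfb enzymes make and break the sugar phosphate that activates phosphofructokinase, and Pfkfb3 is the form with the strongest kinase activity. Pfkfb3 rose from 16.9, 19.8 and 19.4 CPM in shCTL to 24.4, 37.8 and 38.4 CPM in shCdGAP (log2 fold change 0.84 ± 0.20, adjusted p = 0.0307). All shCdGAP libraries were above all shCTL libraries, and replicate 1 was the nearest to them. Pfkfb3 (ENSMUSG00000026773) is on chromosome 2 from 11471430 to 11502101. Pfkfb4 was at 5.93, 5.24 and 6.36 CPM in shCTL and at 4.74, 4.08 and 3.49 CPM in shCdGAP, without overlap but short of the threshold (log2 fold change −0.51 ± 0.20, adjusted p = 0.117). Without shCdGAP replicate 1 Pfkfb4 passed (log2 fold change −0.62, adjusted p = 0.0271). Pfkfb2, the heart-type form, ran from 15.1 to 19.0 CPM in shCTL and from 11.9 to 21.6 CPM in shCdGAP (adjusted p = 0.824). Without both libraries numbered 1 Pfkfb2 was lower (log2 fold change −0.46, adjusted p = 0.0106). The share of Pfkfb3 in the family was 41.1 ± 0.840% in shCTL and 59.4 ± 12.3% in shCdGAP, and that of Pfkfb4 was 22.9 ± 2.92% and 13.03 ± 2.38%.

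Pyruvate dehydrogenase kinases inhibit pyruvate dehydrogenase and so hold back the oxidation of pyruvate in mitochondria. Pdk3 was at 20.4, 18.8 and 17.9 CPM in shCTL and fell to 11.1, 12.8 and 13.3 CPM in shCdGAP (log2 fold change −0.62 ± 0.14, adjusted p = 0.0244). With the replicate number as a block Pdk3 no longer passed (log2 fold change −0.62, adjusted p = 0.0573). Pdk1, a classical HIF target, was at 84.2, 64.8 and 57.3 CPM in shCTL and at 179, 58.5 and 44.9 CPM in shCdGAP. A single library, shCdGAP replicate 1, was far above the rest, and the other shCdGAP libraries lay within or below the shCTL range (log2 fold change 0.45 ± 0.52, adjusted p = 0.589). Pdk3 (ENSMUSG00000035232) is on chromosome X from 93764607 to 93832201, minus strand.

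Slc2a1, Hk1, Pfkp and Pfkfb3 no longer passed when 1 of the 5 libraries other than shCdGAP replicate 1 was left out alone, with adjusted p-values up to 0.0910, 0.0812, 0.0948 and 0.128. Their log2 fold changes kept their sign with each library left out, at −0.93 to −0.64, −0.72 to −0.54, −2.48 to −1.56 and 0.73 to 1.03. All of them passed without both libraries numbered 1 (adjusted p at most 7.52e-05). Pdk3 was also kept without shCdGAP replicate 3 and otherwise reached 0.104. No member was called without any 1 shCTL library or without shCdGAP replicate 2. Without shCdGAP replicate 3, 1 rose and 1 fell of 34 tested (5.88%). Calls over all genes were fewer in these fits too. They were 538 to 824 higher and 856 to 1054 lower, of 13623 to 13847 tested genes, in the fits with no member called. Without shCdGAP replicate 3 they were 1227 and 1259 of 13696. With all 6 libraries they were 1396 and 1534 of 13483. Without shCdGAP replicate 1, 2 members rose and 11 fell of 34 tested (38.2%, against 41.8% of all genes, of which 19.9% rose and 21.9% fell). Without both libraries numbered 1, 4 rose and 13 fell (51.5%, against 52.2% of all genes, of which 25.5% rose and 26.7% fell). Those that fell were the 4 above with Pfkm, Aldoa, Tpi1, Pgk1, Pfkfb2, Pfkfb4, Epas1, P4ha1 and P4ha2, and those that rose were Pfkfb3, Hk2, Vegfa and Ndrg1.

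**Figure D2:**
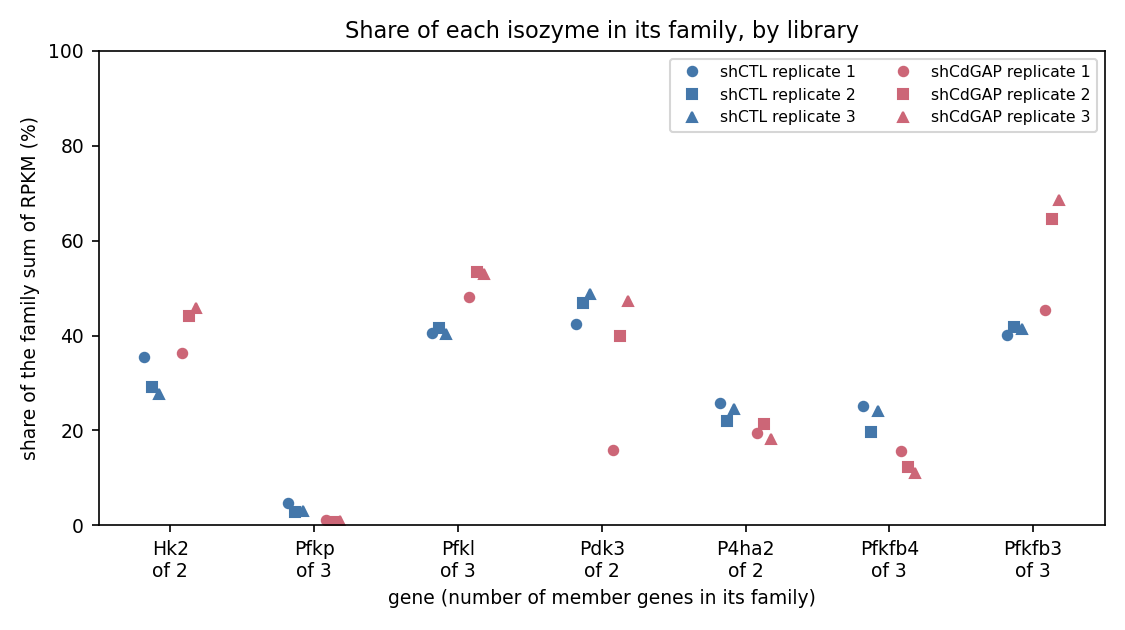
Share of each isozyme in the summed level per length (RPKM) of its family, by library; blue is shCTL, red is shCdGAP, and symbols give the replicate. Hk2, Pfkl and Pfkfb3 shares are higher and Pfkp, P4ha2 and Pfkfb4 shares lower in all shCdGAP libraries, while Pdk3 overlaps.

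In all, 14 isozyme shares were compared by a two-sided exact permutation test. The groups of 3 and 3 cannot give a p below 0.1. The exact p was at this floor of 0.1 for Hk2, Pfkl, Pfkp, Pfkfb3, Pfkfb4, P4ha2 and Eno2 (adjusted p = 0.2 for each). No share could have passed, so the test does not decide whether the shares differ. The Eno2 share rests on few counts.

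The steps of the pathway differed far more from each other than between the groups. Levels are compared here per length, as CPM divided by the exon length in kilobases (RPKM), summed over the isozymes of a step. Pyruvate kinase (Pkm), which makes pyruvate, was the most abundant step at 1715 ± 40.2 RPKM in shCTL and 1560 ± 101 RPKM in shCdGAP (SD, n = 3). Lactate dehydrogenase followed in shCTL at 745 ± 14.5 RPKM and was at 630 ± 34.6 RPKM in shCdGAP, nearly all of it Ldha. Aldolase (661 ± 35.1 RPKM) and phosphoglycerate mutase (631 ± 45.4 RPKM) overlapped in shCTL and did not differ beyond their spread. Then came GAPDH (499 ± 8.10 RPKM), triosephosphate isomerase (430 ± 17.2 RPKM), phosphoglycerate kinase (350 ± 24.4 RPKM), enolase (178 ± 11.5 RPKM) and glucose phosphate isomerase (128 ± 2.11 RPKM), with no overlap between neighbours. The enolase sum holds the listed Eno1 and Eno2 only. With Eno3, which is not on the list, enolase was at 338 ± 0.956 RPKM in shCTL and overlapped phosphoglycerate kinase. The place of enolase depends on the deposited exon lengths, which were 5379 bases for Eno1 and 1739 bases for Eno3. The entry steps were the lowest, with phosphofructokinase at 104 ± 11.6 RPKM, hexokinase at 55.3 ± 7.88 RPKM and glucose uptake through Slc2a1 at 49.1 ± 10.8 RPKM. Hexokinase and Slc2a1 overlapped in shCTL.

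**Figure D3:**
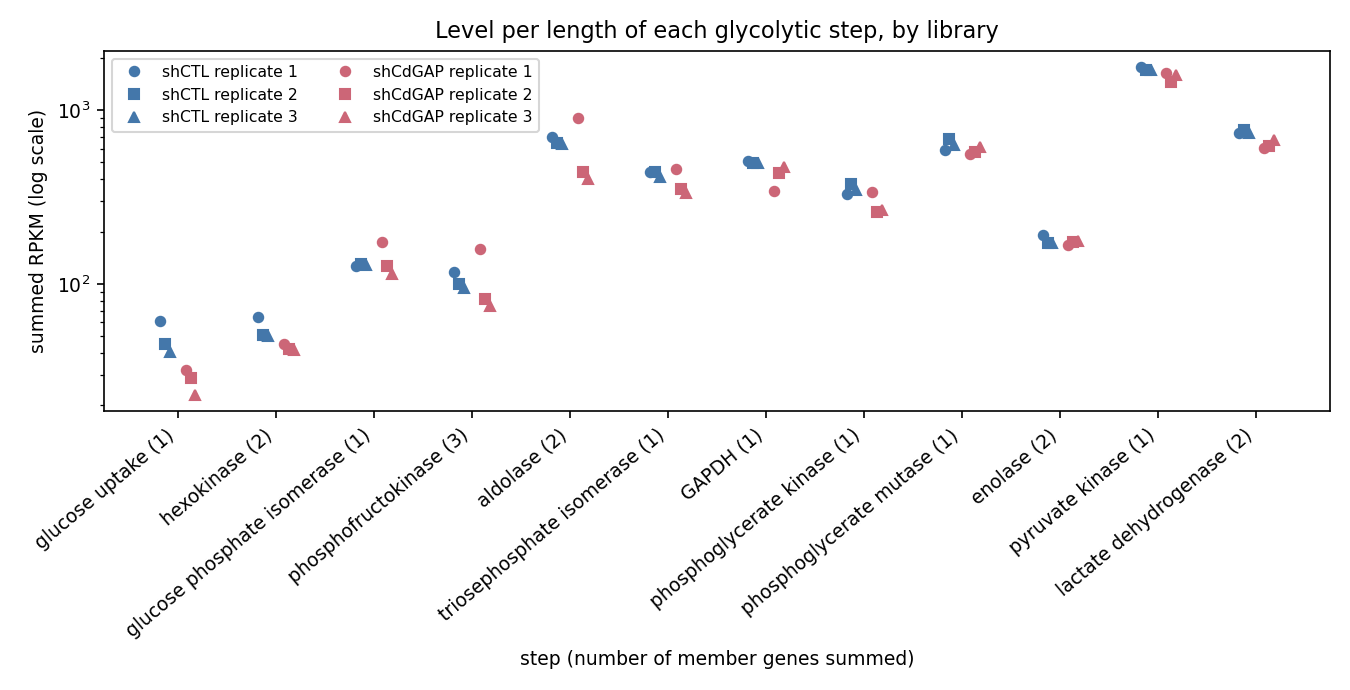
Summed level per length (RPKM, log scale) of each glycolytic step in pathway order, by library; blue is shCTL, red is shCdGAP, and symbols give the replicate. Slc2a1 and hexokinase are lower in all 3 shCdGAP libraries, and aldolase and phosphofructokinase spread widely in shCdGAP, with replicate 1 above the other libraries.

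The ratio of shCdGAP to shCTL was 0.569 for glucose uptake and 0.776 for hexokinase, and the other steps lay between 0.819 and 1.08. With Eno3 counted in, the enolase ratio went from 0.967 to 0.58 (196 ± 7.24 RPKM in shCdGAP), a value that depends on the exon lengths used. Without shCdGAP replicate 1 the phosphofructokinase ratio went from 1.01 to 0.755 and the aldolase ratio from 0.879 to 0.635. Aldoa, the main aldolase, was at 1930, 1775 and 1752 CPM in shCTL and at 2486, 1207 and 1102 CPM in shCdGAP. Its shCdGAP libraries lay on both sides of the shCTL range (log2 fold change −0.19 ± 0.32, adjusted p = 0.726), and without replicate 1 of shCdGAP the log2 fold change was −0.64 (adjusted p = 0.00141). Tpi1 and Pgk1, which act on triose phosphates and on the first ATP-making reaction, also passed only without that library or without both libraries numbered 1. In the former fit their log2 fold changes were −0.32 (adjusted p = 0.0190) and −0.41 (adjusted p = 0.00905).

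Of the 14 tested glycolytic enzymes, 0 were called higher by edgeR, 0 at an unadjusted p under 0.05 and 0 by DESeq2. Of all 13483 tested genes, 10.4% were called higher by edgeR, 2352 were higher at an unadjusted p under 0.05 and 1894 by DESeq2. The differences were not tested. Pkm was at 4578, 4388 and 4408 CPM in shCTL and at 4258, 3758 and 4151 CPM in shCdGAP, and Ldha, which makes lactate, at 2192, 2271 and 2200 against 1793, 1846 and 1993 CPM. Both were lower in every shCdGAP library, by margins that missed the threshold (log2 fold change −0.14 ± 0.11, adjusted p = 0.438, and −0.24 ± 0.10, adjusted p = 0.142). Gapdh, which yields the NADH of glycolysis, showed the same order (1303, 1275 and 1262 against 875, 1116 and 1204 CPM, adjusted p = 0.233). Apart from Hk1 and Pfkp, the remaining enzymes overlapped between groups. Eno1 had the smallest log2 fold change of the 14 enzymes (−0.05 ± 0.10, adjusted p = 0.782), and Pgam1 (−0.12 ± 0.10) and Gpi1 (0.11 ± 0.17) did not pass either.

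Some of these genes have near-identical copies elsewhere in the genome, with which they could share reads. Transcripts of 70 other annotated genes matched Gapdh over at least 300 bases at 95% identity or more, and together they held counts equal to 26.4% of those of Gapdh. For Eno1 there were 2 such genes, mainly Eno1b, with 18.9%. Values for Gapdh and Eno1 are therefore uncertain. How many reads were shared or left out as aligning to several places was not measured. Copies of Gpi1, Pgam1, Pgk1, Ldha, Bnip3 and Bnip3l amounted to at most 3.12% of the gene's counts.

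The brain and heart isoforms Aldoc, Eno2 and Ldhb were scarce. Aldoc, the brain aldolase, was at 0.722 to 1.54 CPM in all 6 libraries (adjusted p = 0.723). Eno2, the neuronal enolase, had 13, 10 and 12 counts in shCTL and 4, 2 and 0 in shCdGAP. Ldhb, the heart-type lactate dehydrogenase, had 1, 4 and 5 counts in shCTL and 17, 5 and 2 in shCdGAP, so that 17 of its 34 counts came from shCdGAP replicate 1, and a near copy held counts equal to 20.6% of its own. Neither Eno2 nor Ldhb passed the filter on low counts with all 6 libraries. Without shCdGAP replicate 1, Eno2 was tested and called lower.

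**Figure D4:**
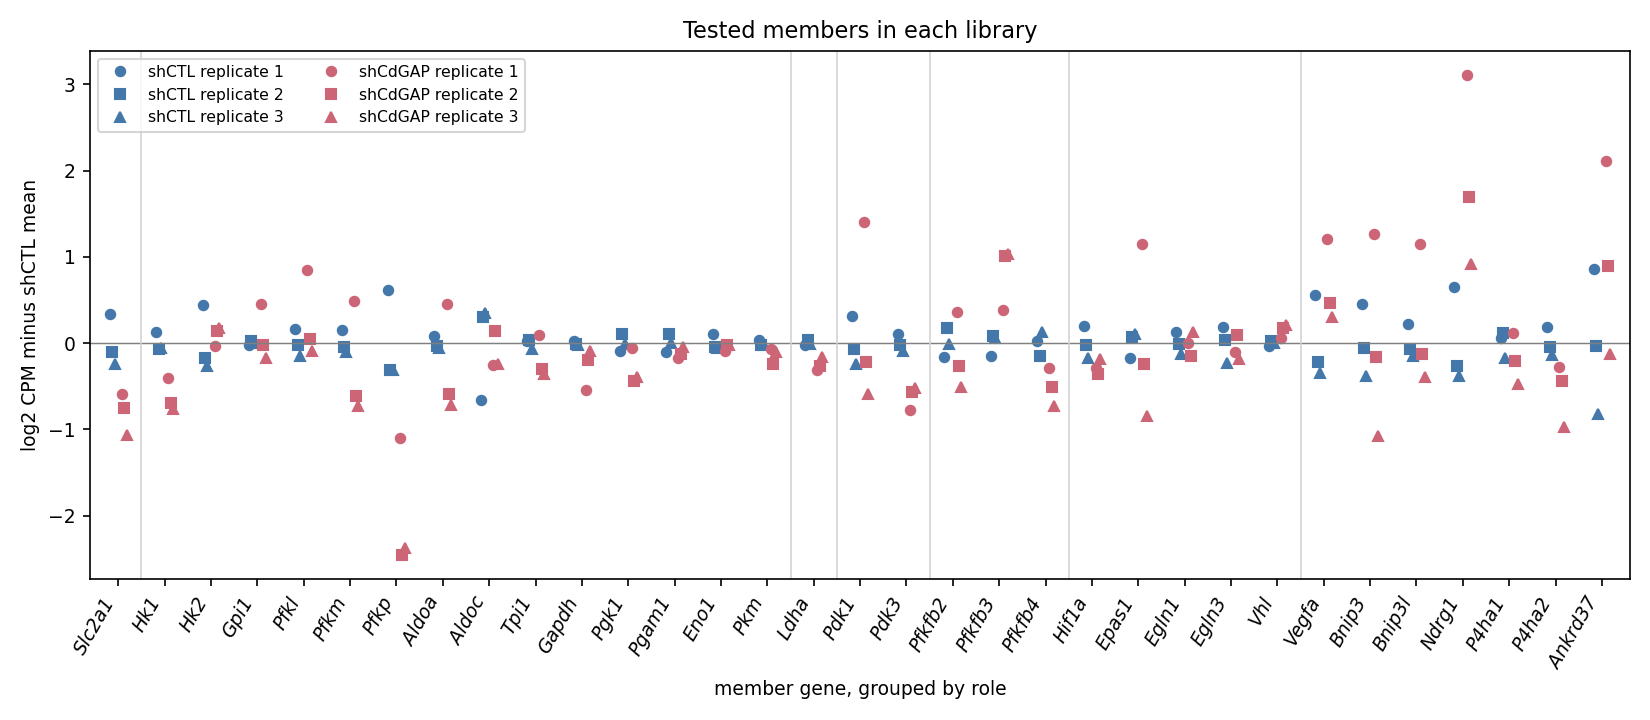
Log2 CPM of the 33 tested members minus their shCTL mean, by library; blue is shCTL, red is shCdGAP, symbols give the replicate, and grey lines part the roles. Slc2a1, Hk1, Pfkp and Pdk3 lie below the shCTL points in all 3 shCdGAP libraries, and the red circles of shCdGAP replicate 1 stand highest for Pdk1, Epas1, Vegfa, Bnip3, Bnip3l, Ndrg1 and Ankrd37.

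The HIF subunits and their oxygen sensors were not called in either direction. Of these 5 genes 0 rose and 0 fell by edgeR, 0 had an unadjusted p under 0.05 and 0 were called by DESeq2. Over all 13483 tested genes edgeR called 21.7%, and so few genes were not tested against that share. At an unadjusted p under 0.05, 2352 of all tested genes were higher and 2332 lower, and DESeq2 called 1894 and 1949. Hif1a, the widely expressed alpha subunit, was at 274, 236 and 212 CPM in shCTL and at 196, 187 and 210.4 CPM in shCdGAP. The groups did not overlap, though shCTL replicate 3 and shCdGAP replicate 3 were close (log2 fold change −0.28 ± 0.12, adjusted p = 0.161). Epas1, the alpha subunit prominent in endothelium, was at 12.3, 14.5 and 14.9 CPM in shCTL and at 30.8, 11.7 and 7.69 CPM in shCdGAP. Only shCdGAP replicate 1 lay above the shCTL range, and without the libraries numbered 1 Epas1 was lower (log2 fold change −0.60, adjusted p = 0.0117). The hydroxylase genes Egln1 (61.5 ± 5.53 and 61.3 ± 5.72 CPM in shCTL and shCdGAP) and Egln3, itself a HIF target (81.2 ± 11.6 and 77.2 ± 7.69 CPM), overlapped between groups. Vhl was at 27.0 ± 0.505 and 29.98 ± 1.58 CPM without overlap (log2 fold change 0.15 ± 0.11, adjusted p = 0.38).

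HIF targets parted into genes whose values were higher in shCdGAP and genes whose values were lower, and none of the 7 tested passed, beside the 21.7% of all tested genes called. At an unadjusted p under 0.05, 1 was higher and 1 lower, and DESeq2 called 1 higher and 0 lower. Of all 13483 tested genes, 2352 were higher and 2332 lower at that p, and DESeq2 called 1894 and 1949. The median log2 fold change of the 7 targets was 0.37, with 5 above 0 and 2 below. Without shCdGAP replicate 1 the median was −0.25, with 3 above 0 and 4 below, and without both libraries numbered 1 it was −0.14. Ndrg1, a stress-induced differentiation gene, was at 72.8, 38.4 and 35.5 CPM in shCTL and at 400.0, 150 and 87.6 CPM in shCdGAP. All shCdGAP libraries were above all shCTL libraries, and replicate 1 was the highest in each group. The log2 fold change of 2.12 ± 0.60 just missed the threshold (adjusted p = 0.0505). The gene passed under the replicate block (1.91, adjusted p = 0.0137), by DESeq2 (2.10, adjusted p = 0.00125), with RLE size factors (2.10, adjusted p = 0.0491), with no filter on low counts (2.09, adjusted p = 0.0275), without both libraries numbered 1 (1.69, adjusted p = 1.11e-05), without shCdGAP replicate 1 (1.29, adjusted p = 0.0139) and without shCdGAP replicate 3 (2.49, adjusted p = 0.0267). In the other 6 alternatives, which were upper quartile factors, the 10 CPM filter, each shCTL library left out and shCdGAP replicate 2 left out, Ndrg1 did not pass (adjusted p = 0.0547 to 0.170). Ndrg1 (ENSMUSG00000005125) is on chromosome 15 from 66929321 to 66969640, minus strand.

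Vegfa, which encodes the main growth factor of blood vessels, was at 133, 77.9 and 71.3 CPM in shCTL and at 208, 125 and 111 CPM in shCdGAP. Each shCdGAP library was above the shCTL library of the same number, while the groups overlapped. The log2 fold change was 0.66 ± 0.33 (adjusted p = 0.214), and with the replicate block 0.66 (adjusted p = 0.0149). It was 0.34 without shCdGAP replicate 1 (adjusted p = 0.291), 0.97 without shCTL replicate 1 (adjusted p = 0.0929) and 0.67 without both (adjusted p = 2.88e-05). Ankrd37, an ankyrin repeat gene induced by HIF, was at 5.004, 2.66 and 1.505 CPM in shCTL and at 12.1, 5.12 and 2.50 CPM in shCdGAP, again higher at each number. Its log2 fold change was 1.11 ± 0.67 (adjusted p = 0.291), and with the replicate block 1.00 (adjusted p = 0.0374). That was the only alternative in which Ankrd37 passed, with 0.35 without shCdGAP replicate 1 (adjusted p = 0.591) and 0.86 without both libraries numbered 1 (adjusted p = 0.0519). With the block, 4 members rose and 3 fell, 21.2% of those tested against 20.4% of all genes (9.47% higher and 10.9% lower).

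Bnip3 and Bnip3l, which mark mitochondria for removal, showed no such order. Bnip3 was at 70.2, 49.3 and 39.3 CPM in shCTL and at 123, 45.9 and 24.3 CPM in shCdGAP, so that shCdGAP held both the highest and the lowest library (adjusted p = 0.774). Bnip3l was at 64.1, 52.2 and 49.5 CPM in shCTL and at 122, 50.3 and 41.7 CPM in shCdGAP (adjusted p = 0.573). Without the 2 libraries numbered 1 their log2 fold changes turned from 0.29 to −0.33 and from 0.37 to −0.14, and neither passed.

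The collagen prolyl hydroxylase subunits P4ha1 and P4ha2, which HIF induces, were the targets with negative log2 fold changes. P4ha2 was at 53.2, 45.0 and 42.2 CPM in shCTL and at 38.3, 34.4 and 23.7 CPM in shCdGAP, without overlap (−0.54 ± 0.20, adjusted p = 0.112), and it passed without shCdGAP replicate 1 (−0.68, adjusted p = 0.0149). P4ha1 ran from 86.1 to 105 CPM in shCTL and from 69.8 to 105 CPM in shCdGAP (adjusted p = 0.522), and it passed without both libraries numbered 1 (−0.31, adjusted p = 0.0302). Car9, the tumour-type carbonic anhydrase often used as a hypoxia marker, had 2, 3 and 2 counts in shCTL and 4, 1 and 1 in shCdGAP. Adm, the vessel-dilating peptide adrenomedullin, had 1, 1 and 2 counts in shCTL and 1, 0 and 0 in shCdGAP. Both were thus near the limit of detection, since 3 counts correspond to 0.109 to 0.155 CPM in these libraries, an amount that covers counting error only.

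**Figure D5:**
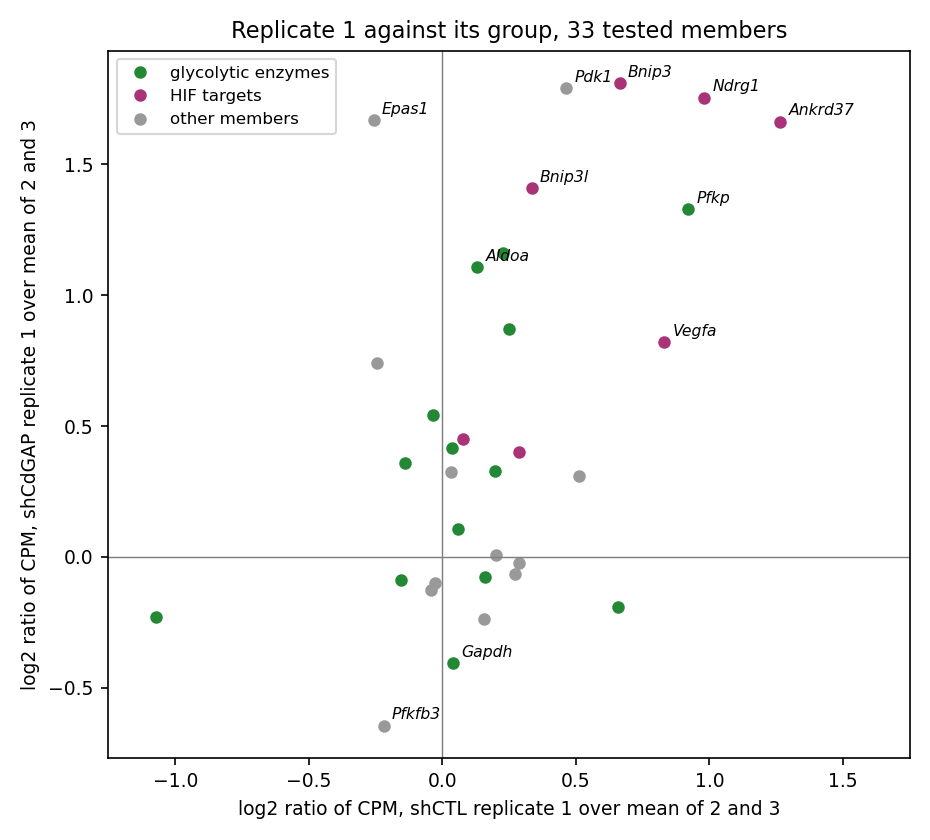
Log2 ratio of replicate 1 to the mean of replicates 2 and 3 in shCTL (x) and in shCdGAP (y), 1 point for each tested member. The HIF targets, in purple, lie in the upper right, with Ndrg1, Ankrd37 and Bnip3 far from 0 on both axes, and Pfkfb3 and Gapdh lie below 0 in shCdGAP.

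Many HIF targets were highest in the libraries numbered 1 of both groups. Of the 7 tested HIF targets, 6 were highest in replicate 1 of shCTL and also in replicate 1 of shCdGAP. The same held for 6 of 14 glycolytic enzymes, 14 of all 33 members (42.4%) and 27.3% of all tested genes. These differences were not tested, and the members were chosen with earlier results of these data known. Ankrd37 in replicate 1 was 2.40 times the mean of the other replicates in shCTL and 3.17 times in shCdGAP. For Ndrg1 these ratios were 1.97 and 3.37, for Bnip3 1.58 and 3.51, for Vegfa 1.78 and 1.77, and for Pfkp 1.89 and 2.51. Epas1 was high in replicate 1 of shCdGAP alone (0.837 and 3.18), and Pfkfb3 was low there (0.859 and 0.640). Against the shCTL mean, the median HIF target differed by 0.45, −0.061 and −0.34 in log2 CPM in shCTL replicates 1 to 3 and by 1.21, −0.12 and −0.40 in shCdGAP replicates 1 to 3. In shCdGAP, the median glycolytic enzyme differed by −0.06, −0.22 and −0.21. The median HIF target was thus above the shCTL mean in replicate 1 of each group and in no other library. Arhgap31 was lowest in replicate 1 of each group, at 13.2 CPM in shCTL and 1.70 CPM in shCdGAP, and shCTL replicate 1 lay above every shCdGAP library. A link between its level and the HIF targets was not tested.

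Larger fold changes were measured for some genes of the same pathways outside the list. Of 30 other genes of glycolysis and pyruvate use 20 were tested, and 3 rose and 3 fell (2 to 4 and 2 to 6 with a library left out). These 6 were 30% of those tested, beside the 21.7% of all genes. Eno3, the muscle enolase, fell 6.77-fold, from 278 ± 19.8 to 41.0 ± 3.63 CPM (log2 fold change −2.76 ± 0.12, adjusted p = 0.000128). Per length Eno3 was at 160 ± 11.4 RPKM in shCTL, close to Eno1 at 178 RPKM, and at 23.6 ± 2.09 RPKM in shCdGAP. That closeness rests on the deposited exon lengths of 5379 bases for Eno1 and 1739 bases for Eno3. In CPM, Eno1 was far above Eno3 in shCTL (957 ± 61.5 against 278 ± 19.8). Ldhd, a mitochondrial dehydrogenase of D-lactate, fell from 4.55 ± 0.375 to 0.206 ± 0.209 CPM. Mpc1, a subunit of the mitochondrial pyruvate carrier, rose 2.49-fold from 13.1 ± 1.49 to 32.5 ± 0.496 CPM (adjusted p = 0.0014). The lactate exporter gene Slc16a3, which is also a HIF target and counted on both lists, had 0 counts in all libraries. Slc16a1, another lactate transporter gene on this list, was at 248 ± 10.7 CPM in shCTL and 171 ± 43.0 CPM in shCdGAP. Its groups did not overlap, and it did not pass (adjusted p = 0.0955). Neither of these transporter genes was chosen by its p-value, unlike the other genes named from this list.

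Among 12 other genes of HIF regulation 11 were tested. By edgeR 1 rose and 0 fell, at an unadjusted p under 0.05 the counts were 3 and 0, and DESeq2 called 2 and 0. The edgeR call was 9.09% of those tested, beside the 21.7% of all genes. Over all 13483 tested genes the unadjusted counts were 2352 and 2332, and the DESeq2 counts 1894 and 1949. The gene that rose was Elob, the elongin subunit that joins Vhl to its ligase (97.8 ± 3.16 to 135 ± 7.94 CPM, adjusted p = 0.0166). The Elob call was lost without any 1 shCTL library, without shCdGAP replicate 2 and with no filter on low counts (adjusted p up to 0.0989). Of 35 other HIF targets 30 were tested, and 4 rose and 9 fell (3 to 4 and 7 to 13 with a library left out), with a median log2 fold change of −0.26. The list was chosen with earlier results of these data known. Its 13 called genes were 43.3% of those tested, beside the 21.7% of all genes, and the difference was not tested. Those that fell with the smallest p were Plod2, a collagen lysyl hydroxylase (145 ± 19.8 to 60.6 ± 5.81 CPM, adjusted p = 0.00181), and Gbe1, the glycogen branching enzyme (25.0 ± 0.633 to 12.5 ± 0.405 CPM, adjusted p = 0.00226). Those that rose with the smallest p were the lysyl oxidase gene Loxl2 (log2 fold change 5.44) and Edn1, the vasoconstrictor endothelin, at 0.533 ± 0.248 CPM in shCTL and 16.3 ± 2.86 CPM in shCdGAP.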

How the data were processed

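RNA from 6 libraries was sequenced, and the deposited values are raw fragment counts per gene, which per the file headers were made by featureCounts 1.4.6 from TopHat alignments to GRCm38 genes of Ensembl 77. Pairs were counted where both mates aligned to the same chromosome, with strand setting 2, and the header holds no option to count reads with several alignments. The submitters' processing notes also name DESeq, Cuffdiff 2.2.1, TopHat2 2.0.14, Trimmomatic 0.30 and CASAVA 1.8.

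From these counts, 13483 genes passed filterByExpr (minimum count 10, minimum total 15) and were tested for shCdGAP against shCTL in edgeR 4.0.16 under R 4.3.3, by its quasi-likelihood method after TMM scaling, with Benjamini-Hochberg adjustment over all of them and calls at an adjusted p under 0.05. All adjusted p-values are from this fit unless DESeq2 (1.42.0), the permutation test or another setting is named. The SE is the absolute log2 fold change over the square root of F. CPM uses TMM-scaled totals, and RPKM divides it by the deposited exon length. Symbols from GENCODE M21 matched 40254 of 41214 genes. Copies were sought with blastn 2.17.0. The steps were tested on simulated data. Members and lists were chosen with earlier results of these data known. All members are named, and of each further list the 2 genes called higher and the 2 called lower with the smallest p. One gene that this rule names is not reported here.

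Replicates of a group differed by more than counting noise (chi-square over its degrees of freedom at least 3.00), so none was treated as a library deposited more than once. This does not show that they are separate cultures. Same-numbered libraries correlated at 0.36, 0.29 and 0.25 in their deviations from the group means. By the rule of every pair above 0.1, a fit with the replicate number as a block was added. The crossed numbers 2 and 3 gave 0.25 and 0.19, so these values do not clearly pair numbers 2 and 3. The labels give no day or batch. The main fit, which gave the calls, left the libraries unpaired. The fit with the replicate block is an alternative, as are other scalings and filters, DESeq2, and leaving out each library.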

Additional observations from a re-analysis of the deposited data

How the results depend on the processing

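Under a filter that kept genes averaging 10 CPM or more, 870 genes were called higher and 825 lower, in place of 1396 and 1534. With a library left out these counts ran from 538 to 2753 and from 856 to 3032, and for the members from 0 to 2 higher and 0 to 11 lower. Members called higher numbered 2 with RLE size factors, with no filter on low counts and with DESeq2, in each case Pfkfb3 and Ndrg1, and 4 with the replicate block. The block changed the calls of Ndrg1, Vegfa, Ankrd37 and Pdk3 and of no other member. Without both libraries numbered 1, a setting chosen after seeing the data, 3475 and 3640 genes and 4 and 13 members were called. That setting turned the log2 fold changes of Gpi1 (−0.094), Pdk1 (−0.23), Epas1 (−0.60), Bnip3 (−0.33) and Bnip3l (−0.14) below 0 and those of Eno1 (0.042), Egln1 (0.075) and Egln3 (0.055) above 0. With 1 library left out, log2 fold changes crossed 0 for Hk2 (−0.065 to 0.31), Gpi1 (−0.081 to 0.24), Pfkl (−0.014 to 0.50), Pfkm (−0.66 to 0.039), Aldoa (−0.64 to 0.024), Pdk1 (−0.40 to 0.79), Pfkfb2 (−0.38 to 0.076), Epas1 (−0.51 to 0.62), Egln1 (−0.069 to 0.068), Egln3 (−0.18 to 0.013), Bnip3 (−0.58 to 0.68) and Bnip3l (−0.25 to 0.65). None of these 12 was called on all 6 libraries, and other scalings, filters, DESeq2 and the block changed the sign of no member. The cause of these differences was not tested. Depth limits Eno2, Ldhb, Car9 and Adm, which had at most 17 counts in a library.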

Other observations

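HIF targets outside the list were also high in the libraries numbered 1. Of 30 tested genes, 17 (56.7%) were highest in replicate 1 of both groups, against 27.3% of all tested genes. The difference was not tested, and the list was chosen with earlier results of these data known. Genes named here were chosen after their values were seen. Ero1l, an oxidase that helps proteins fold, was at 514, 272 and 232 CPM in shCTL replicates 1 to 3 and at 271, 103 and 93.0 CPM in shCdGAP replicates 1 to 3 (edgeR adjusted p = 0.168). Ddit4, an inhibitor of mTOR signalling, was at 229, 99.1 and 69.9 CPM in shCTL and at 165, 76.5 and 44.0 CPM in shCdGAP (adjusted p = 0.624). Hmox1, which degrades heme, was at 141, 43.7 and 46.5 CPM in shCTL and at 178, 47.3 and 62.1 CPM in shCdGAP (adjusted p = 0.782). Vldlr, a lipoprotein receptor, was at 46.9, 25.1 and 19.4 CPM in shCTL and at 154, 45.8 and 40.5 CPM in shCdGAP, higher in shCdGAP at each number (adjusted p = 0.157).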
